A study of Homo sapiens with 6 samples.

Results

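Metalloprotease and inhibitor transcripts were followed in H1299 cells in which CCNB1, the gene of cyclin B1, was knocked down. The genes are MMP1, MMP2, MMP3, MMP14, MMP15, MMP24, TIMP1, TIMP2, TIMP3 and ADAM17. They were taken by symbol, and each matched 1 row, so the set is 10 of the 58336 genes in the count and FPKM tables. The 3 mock libraries came from H1299 cells, a lung carcinoma line, whose genotype is labelled WT and whose titles name a PLVT7 mock vector. The 3 knockdown libraries came from the same line with PLVT7 and a short hairpin RNA against CCNB1. All 6 passed through puromycin selection of stable transfectants, so the drug and the vector are shared by both groups. The number of hairpins and of clones is not given in the sources used here. The labels tie no library to a culture of its own, and p-values therefore cover only library-to-library spread, possibly of technical origin.

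Matrix metalloproteases (MMPs) are zinc endopeptidases that cut collagens, laminins and other matrix proteins, and are made as latent proenzymes. Tissue inhibitors of metalloproteases (TIMPs) block the active site, and TIMP2 also bridges the membrane-bound MMP14 to pro-MMP2, which MMP14 then helps to activate. ADAM17 is a membrane sheddase that frees TNF and several EGFR ligands from the cell surface, and TIMP3 is its best known natural inhibitor.

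Library totals lay between 28122665 and 30332989 counts. Levels are given as CPM, counts scaled to the library's TMM-adjusted total, and as FPKM, the deposited value per length, which alone is used to compare genes with each other. CCNB1 itself had 323, 305 and 294 CPM in mock and 19.9, 29.9 and 16.1 CPM in knockdown libraries 1, 2 and 3, and fell by 3.81 on the log2 scale (SE 0.22, edgeR adjusted p = 0.000215). On the axis that held most of the variance over tested genes, 41.9%, knockdown library 2 was at -11.3, nearer the mock libraries, at -26.7 to -20.5, than knockdown libraries 1 and 3, at 42.3 and 38.7. On the next axis, with 22.5%, it was at -36.0, and all other libraries were at -11.9 to 24.1. Its root-mean-square log2 distance to the mock mean was 0.436, against 0.226 to 0.256 for mock libraries and 0.542 and 0.519 for knockdown libraries 1 and 3. For genes described below, a call that changed without this library is given both ways. Knockdown library 2 was singled out from these same data, so p-values without it describe the genes and do not test them. Summed CPM of 4 mesenchymal markers, mostly VIM, was 3317 to 3469 in mock and 1885, 3540 and 2033 in knockdown libraries 1, 2 and 3. The sum was thus low in the same libraries as several genes below, and its part in their values was not tested. In knockdown libraries 1 and 3, VIM, FN1 and ZEB1 each lay below every mock library, while CDH2 overlapped mock. The log2 fold change of CDH2 was 0.07 (SE 0.12), and 0.02 without knockdown library 2. None of the 4 passed edgeR's test over all 6 libraries (VIM adjusted p = 0.358). Without knockdown library 2 only VIM passed (edgeR adjusted p = 0.00135). The 6 lung adenocarcinoma markers summed to 6.02 to 6.93 CPM in mock and to 7.46 to 8.27 CPM in knockdown libraries. Of these, KRT7 had 49 to 51 counts in mock and 67 to 106 in knockdown libraries (edgeR adjusted p = 0.199, and 0.0359 without knockdown library 2), and NKX2-1, SFTPB and EPCAM had at most 14 counts in any library. Fibroblast markers summed to 0.812 to 1.02 CPM in mock and to 0.303 to 0.742 CPM in knockdown libraries, endothelial markers to between 1.94 and 2.98 CPM and leukocyte markers to between 0.242 and 0.774 CPM, with PTPRC, CD3E and MS4A1 at 0 counts in all 6 libraries.

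Of the 10 genes, 8 passed the filter on low counts and 0 passed edgeR's quasi-likelihood test at an adjusted p under 0.05, where 0.0231% of the 17349 genes tested were called. DESeq2 called 0 of them too, against 3.45% of the genes it tested. At an unadjusted p under 0.05 there were 5, MMP14, TIMP2 and ADAM17 with lower and MMP15 and MMP24 with higher estimates in the knockdown, and 15.0% of all genes were at that level. MMP15 was tested only through its knockdown libraries, since 1 mock library reached the filter's level. Groups did not overlap for MMP14, with the knockdown lower as for 8.84% of all genes, nor for MMP15 and MMP24, with the knockdown higher as for 10.9% of all genes. In knockdown libraries 1 and 3, 6 of the 8 lay below every mock library, which held for 22.0% of all genes. Without knockdown library 2, those 6 (MMP1, MMP2, MMP14, TIMP1, TIMP2 and ADAM17) passed edgeR's test with the knockdown lower, where 7.58% of genes were called lower and 6.24% higher, and MMP15 and MMP24 did not. The 10 genes were chosen with earlier results of these libraries known, so these shares describe them and do not test them. In bulk RNA, fewer cells of a kind and less RNA per cell cannot be told apart.

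**Figure D1:**
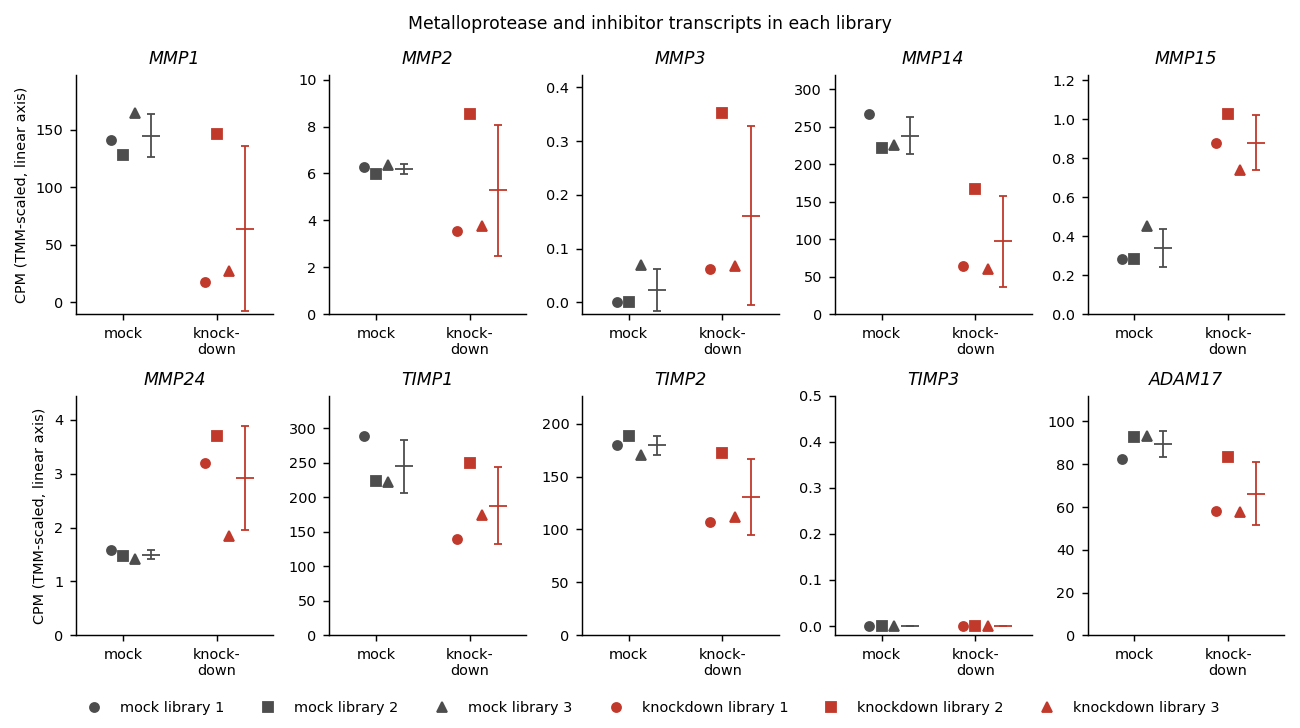
CPM of the 10 genes in each library, on a linear axis of its own for each gene; points are libraries, and the bar beside them is the mean with its SD over 3 libraries. Knockdown library 2 (squares) was at or near the mock level for MMP1, TIMP1, TIMP2 and ADAM17, while MMP15 and MMP24 were above mock in all 3 knockdown libraries and TIMP3 had 0 counts.

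Among the secreted proteases, MMP1, the interstitial collagenase, was the most abundant. MMP1 (ENSG00000196611, chromosome 11 from 102789920 to 102798160, minus strand, GRCh38) had 141, 128 and 165 CPM in mock libraries 1, 2 and 3. It had 17.7, 147 and 27.4 CPM in knockdown libraries 1, 2 and 3. Knockdown libraries 1 and 3 thus held 12.2% and 19.0% of the mock mean and knockdown library 2 held 101%, inside the mock range, so the groups overlapped. In edgeR the log2 fold change was -1.18 (SE 0.62, adjusted p = 0.406). Without knockdown library 2 it was -2.68 (SE 0.20, edgeR adjusted p = 0.000161). On the log2 scale knockdown library 2 stood 2.73 above the mean of knockdown libraries 1 and 3 for MMP1, a gap that 0.0346% of tested genes reached or passed. Of its exon bases, 150 are shared with the opposite-strand pseudogene WTAPP1, which had 65 counts over all 6 libraries.

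MMP2, gelatinase A, cleaves denatured collagens and type IV collagen. MMP2 (ENSG00000087245, chromosome 16 from 55389700 to 55506691, plus strand) was low, with 178, 169 and 184 counts in the mock and 113, 241 and 112 counts in the knockdown libraries. The level was 6.20 ± 0.210 CPM (SD, n = 3) in mock and 5.27 ± 2.81 CPM (SD, n = 3) in knockdown. Knockdown libraries 1 and 3 were below and knockdown library 2 was above every mock library. The edgeR estimate was -0.24 on the log2 scale (SE 0.31, adjusted p = 0.752), and it was -0.76 (SE 0.16, edgeR adjusted p = 0.016) without knockdown library 2.

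MMP3, stromelysin 1, which also activates other pro-MMPs, was barely detected. MMP3 (ENSG00000149968, chromosome 11 from 102835801 to 102843803, minus strand) had 0, 0 and 2 counts in mock and 2, 10 and 2 counts in knockdown libraries, and was not tested. The ratio of knockdown to mock counts per total was 6.90, with an exact 95% interval from 1.58 to 62.5 that covers counting error only. Without knockdown library 2 it was 2.90, from 0.415 to 32.0, an interval that includes 1. Of its exon bases, 32 are shared with WTAPP1.

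The 3 membrane-type proteases were the tested genes whose groups did not overlap, and they did not go 1 way. MMP14, the membrane-bound collagenase and activator of pro-MMP2, had 267, 222 and 226 CPM in mock libraries 1, 2 and 3 (ENSG00000157227, chromosome 14 from 22836557 to 22849027, plus strand). It had 63.9, 167 and 60.4 CPM in knockdown libraries 1, 2 and 3, all below mock, with library 2 at 70.0% of the mock mean and the others at 26.8% and 25.4%. Knockdown against mock gave a log2 fold change of -1.30 (SE 0.34, edgeR adjusted p = 0.142), and -1.94 (SE 0.12, edgeR adjusted p = 9.15e-05) without knockdown library 2.

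MMP15, a transmembrane relative of MMP14, was low, with 8, 8 and 13 counts in mock and 28, 29 and 22 counts in knockdown libraries (ENSG00000102996, chromosome 16 from 58025566 to 58046901, plus strand). All 3 knockdown libraries were higher than mock, at 219% to 303% of the mock mean. In edgeR the log2 fold change was 1.37 (SE 0.36, adjusted p = 0.141). The filter asked for 0.339 CPM in 3 libraries.

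MMP24, a membrane-type protease best known from neurons, had 45, 42 and 41 counts in mock and 102, 105 and 55 counts in knockdown libraries (ENSG00000125966, chromosome 20 from 35226654 to 35277000, plus strand). Knockdown libraries 1 and 2 were at 214% and 248% of the mock mean and library 3 at 124%, again above every mock library. The edgeR estimate was 0.96 on the log2 scale (SE 0.28, adjusted p = 0.168). It shares 799 of its 4414 exon bases with MMP24OS on the opposite strand, and since the strand setting is not given in the sources used here, the reads of the overlap cannot be told apart. MMP24OS was more abundant in mock, at 4.94 ± 0.0878 FPKM against 0.333 ± 0.0160 FPKM for MMP24 (SD, n = 3 each). The level of MMP24OS was 27.7 ± 0.681 CPM in mock and lower in the knockdown, at 21.6 ± 4.06 CPM (SD, n = 3 each). Its log2 fold change was -0.36 (SE 0.16, edgeR adjusted p = 0.324).

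Their promoters are shown because MMP14 and its relatives MMP15 and MMP24 lay on opposite sides of mock. Each runs from 250 bases before to 50 bases after the RefSeq start, on the plus strand of GRCh38.p14, at chr14:22836335-22836634, chr16:58025504-58025803 and chr20:35226440-35226739, with capitals at motif matches:
MMP14: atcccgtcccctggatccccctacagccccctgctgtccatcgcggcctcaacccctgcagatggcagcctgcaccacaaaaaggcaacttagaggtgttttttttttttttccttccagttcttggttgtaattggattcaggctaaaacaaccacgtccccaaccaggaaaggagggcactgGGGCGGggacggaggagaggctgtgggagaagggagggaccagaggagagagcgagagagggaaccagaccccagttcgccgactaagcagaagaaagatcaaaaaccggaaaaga
MMP15: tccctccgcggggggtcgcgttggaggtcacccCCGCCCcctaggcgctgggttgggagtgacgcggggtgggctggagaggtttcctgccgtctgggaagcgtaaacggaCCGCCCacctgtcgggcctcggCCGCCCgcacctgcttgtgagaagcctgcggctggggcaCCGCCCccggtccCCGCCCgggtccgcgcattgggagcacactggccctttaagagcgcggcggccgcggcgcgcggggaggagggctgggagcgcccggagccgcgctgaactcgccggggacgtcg
MMP24: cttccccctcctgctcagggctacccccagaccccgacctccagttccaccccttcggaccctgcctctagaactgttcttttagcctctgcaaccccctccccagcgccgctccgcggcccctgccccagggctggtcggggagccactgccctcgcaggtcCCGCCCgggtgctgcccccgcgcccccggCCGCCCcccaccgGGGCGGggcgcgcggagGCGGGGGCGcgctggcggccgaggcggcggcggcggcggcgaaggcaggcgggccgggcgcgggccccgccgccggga
The motifs searched on both strands were the GC box bound by SP1 family factors (GGGCGG), the AP-1 site (TGANTCA), an EGR1 site (GCGNGGGCG), an ETS site (CCGGAAGT) and the TATA box (TATAAA). Of 35116 promoters of this length, these were held by 45.0%, 7.71%, 9.43%, 4.14% and 11.5%. MMP14 held 1 GC box, MMP15 held 5 and MMP24 held 3, and MMP24 alone of these held the EGR1 letters, with no overlap of its GC boxes. None of the 3 windows held the AP-1, ETS or TATA letters. CpG dinucleotides numbered 10 in the MMP14, 39 in the MMP15 and 37 in the MMP24 window, with a median of 14 over all promoters. ADAM17 and TIMP1, both with lower estimates in the knockdown, had 36 and 16 CpG and 3 and 2 GC boxes in their windows. These matches describe the windows only.

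**Figure D2:**
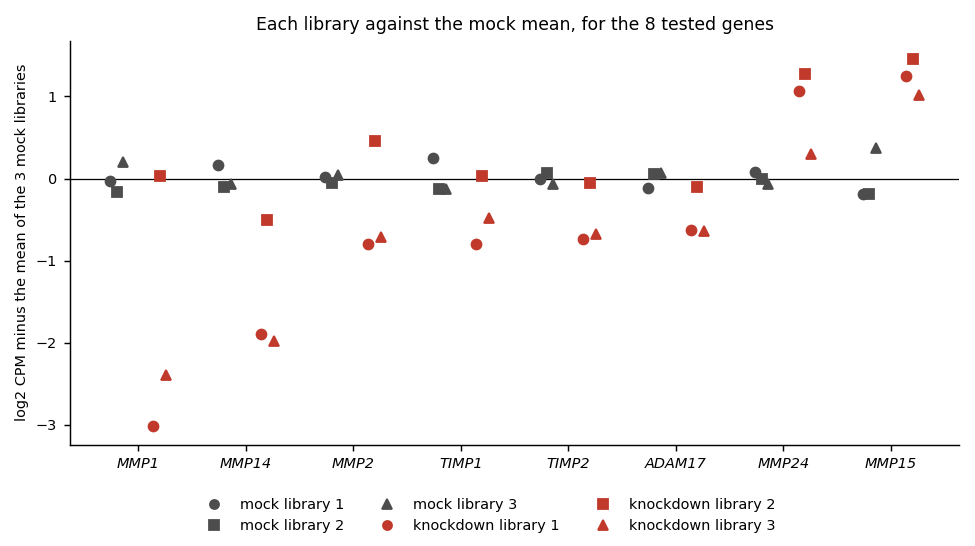
log2 CPM of each library minus the mean of the 3 mock libraries, for the 8 tested genes; each point is a library. Knockdown libraries 1 and 3 lay below mock for 6 genes, furthest for MMP1 and MMP14, and all 3 knockdown libraries lay above mock for MMP24 and MMP15.

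TIMP1 and TIMP2 were well expressed, and TIMP3 was not detected. TIMP1, an inhibitor of MMPs, had 290, 223 and 223 CPM in mock and 139, 249 and 175 CPM in knockdown libraries 1, 2 and 3 (ENSG00000102265, chromosome X from 47582313 to 47586789, plus strand). Knockdown library 2 lay within the mock range, and libraries 1 and 3 were at 56.9% and 71.3% of the mock mean. Knockdown against mock gave a log2 fold change of -0.38 (SE 0.21, edgeR adjusted p = 0.414), and -0.64 (SE 0.15, edgeR adjusted p = 0.0248) without knockdown library 2. The gene lies within SYN1, on the opposite strand, and shares 0 exon bases with it.

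TIMP2, the inhibitor that docks pro-MMP2 to MMP14, had 179, 189 and 171 CPM in mock and 108, 172 and 112 CPM in knockdown libraries 1, 2 and 3 (ENSG00000035862, chromosome 17 from 78852977 to 78925387, minus strand). Knockdown libraries 1 and 3 were at 59.8% and 62.4% of the mock mean and library 2 at 95.8%. In edgeR the log2 fold change was -0.46 (SE 0.18, adjusted p = 0.277), and -0.71 (SE 0.10, edgeR adjusted p = 0.00313) without knockdown library 2. It shares 198 exon bases with CEP295NL, which had 53 counts in all.

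TIMP3, which binds the matrix and inhibits ADAM17 (ENSG00000100234, chromosome 22), was the gene at the count floor, with 0 counts in all 6 libraries. A count of 0 allows a level of up to 3 counts, or 0.0940 to 0.106 CPM by library, for counting error only. No difference could be seen at this depth. MMP3 came next, with 10 counts in its highest library, and MMP15 with 29 counts was the lowest of the tested genes.

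ADAM17 (ENSG00000151694, chromosome 2) had 82.4, 92.8 and 93.4 CPM in mock and 58.0, 83.4 and 57.5 CPM in knockdown libraries 1, 2 and 3. Libraries 1 and 3 were at 64.8% and 64.2% of the mock mean, and library 2, at 93.1%, lay just above the lowest mock library. The edgeR estimate was -0.43 on the log2 scale (SE 0.16, adjusted p = 0.258), and -0.63 (SE 0.11, edgeR adjusted p = 0.00648) without knockdown library 2. The files imply a gene length of 5491 bases against 10750 in GENCODE 29, so no position is given. By that annotation it shares 1323 exon bases with the opposite-strand gene IAH1, which had 5245 counts over the 6 libraries, so part of its reads is uncertain.

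Compared per length, TIMP1 was the most abundant of the 10 in mock cells, at 156 ± 21.5 FPKM (SD, n = 3). MMP1 followed at 72.1 ± 8.70 FPKM, MMP14 at 52.4 ± 4.38 FPKM, TIMP2 at 31.4 ± 2.14 FPKM and ADAM17 at 16.0 ± 1.40 FPKM (SD, n = 3 each). MMP2 at 1.23 ± 0.0252 FPKM, MMP24 at 0.333 ± 0.0160 FPKM and MMP15 at 0.0751 ± 0.0213 FPKM (SD, n = 3 each) were far lower. No neighbours in this order overlapped between mock libraries, except MMP3 and TIMP3 at its end. In the knockdown libraries MMP1 (32.6 ± 36.2 FPKM), TIMP2 (23.5 ± 6.12 FPKM), MMP14 (22.0 ± 13.3 FPKM) and ADAM17 (12.2 ± 2.57 FPKM) each overlapped their neighbour among these 4 (SD, n = 3 each), and all 4 were above MMP2.

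MMP1 and MMP14 together made up 98.6% to 98.7% of the summed FPKM of the 6 MMPs in mock libraries and 93.3% to 97.4% in knockdown libraries. The sum of the 6 was 128, 117 and 133 FPKM in mock and 26.3, 115 and 28.7 FPKM in knockdown libraries 1, 2 and 3. The sum of the 3 TIMPs was 211, 180 and 171 FPKM in mock and 115, 192 and 133 FPKM in knockdown libraries 1, 2 and 3. Their ratio, inhibitor over protease, was 1.28 to 1.65 in mock, and 4.39, 1.68 and 4.62 in knockdown libraries 1, 2 and 3. The 6 leave out other MMPs, among them MMP10, MMP16 and MMP17, at 3.23, 2.87 and 1.80 FPKM in mock, all above MMP2. The place of knockdown library 2 just above mock therefore holds for this set only. The ratio of TIMP2 to MMP14 was 0.533 to 0.674 in mock and 1.33, 0.818 and 1.47 in knockdown libraries 1, 2 and 3, so all 3 knockdown libraries were above mock and TIMP2 exceeded MMP14 in libraries 1 and 3. For TIMP1 over MMP1 the ratio was 1.73 to 2.62 in mock and 10.1, 2.18 and 8.15 in knockdown libraries 1, 2 and 3, with library 2 inside the mock range. These ratios are of transcripts and were not tested.

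**Figure D3:**
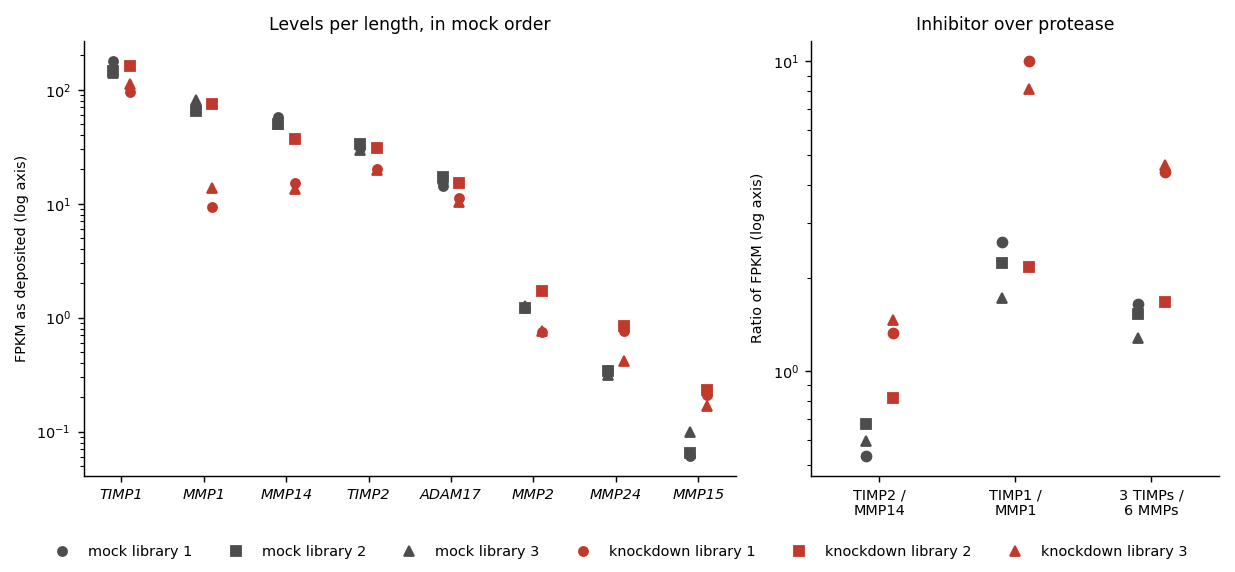
Left, deposited FPKM of the 8 tested genes on a log axis, in order of their mock mean. Right, ratios of FPKM on a log axis; points are libraries. TIMP2 over MMP14 was above mock in all 3 knockdown libraries, and TIMP1 over MMP1 in libraries 1 and 3. For 3 TIMPs over 6 MMPs, libraries 1 and 3 were above mock. Library 2 was above by little (1.68 against at most 1.65), for this set of MMPs only.

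MMP1 and MMP3 lie 37640 bases apart in a cluster of 9 MMP genes that spans 435227 bases of chromosome 11. MMP10, stromelysin 2 (chromosome 11 from 102770503 to 102780628), is the neighbour of MMP1 on its other side. It had 147, 152 and 197 counts in mock and 41, 247 and 34 counts in knockdown libraries 1, 2 and 3, so that libraries 1 and 3 were low and library 2 was above mock. Its log2 fold change was -0.65 (SE 0.63, edgeR adjusted p = 0.658), and -2.25 with an adjusted p of 0.000455 without knockdown library 2. MMP13, collagenase 3 (chromosome 11 from 102942995 to 102955734), had 88, 99 and 83 counts in mock and 103, 107 and 72 in knockdown libraries, with a log2 fold change of -0.01 (SE 0.22), and -0.16 without knockdown library 2. MMP7, MMP8, MMP12, MMP20 and MMP27 had at most 4 counts in any library.

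**Figure D4:**
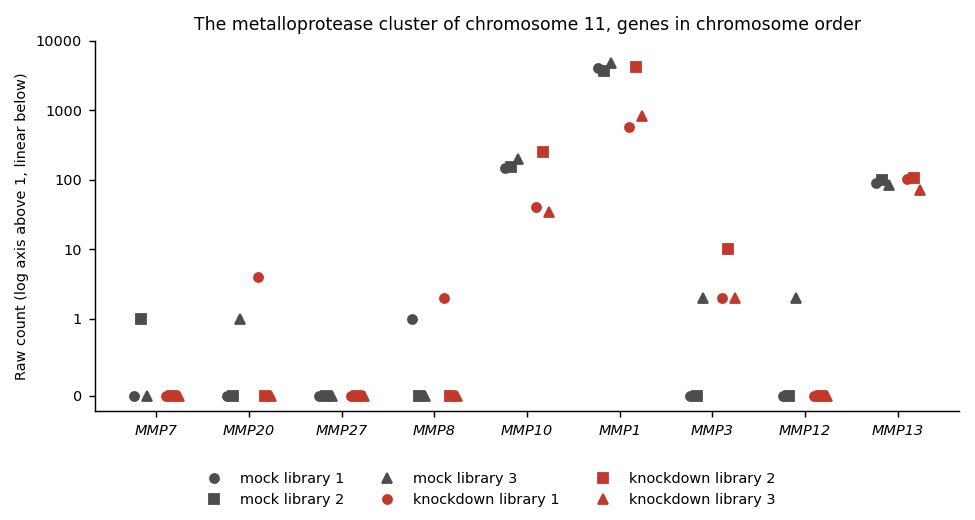
Raw counts of the 9 MMP genes of the chromosome 11 cluster, in order along the chromosome, on a log axis above 1; points are libraries. MMP10 and MMP1 were low in knockdown libraries 1 and 3 and at or above mock in library 2, and MMP13 stayed between 72 and 107 counts.

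Genes related to these proteases were read from 8 lists of 104 genes, of which 72 were tested. Estimates were lower for 46 and higher for 26, with a median log2 fold change of -0.10 against 0.02 over all genes tested. None passed edgeR's test, where the lowest adjusted p was 0.0848, with 15 at an unadjusted p under 0.05, where 15.0% of all genes were, and 6 past the threshold in DESeq2, where 3.45% of all genes were. Without knockdown library 2, 75 of the listed genes were tested and 21 passed in edgeR. Of these, 17 were lower and 4 higher, against 7.58% and 6.24% of all genes. Genes near the filter enter that fit through the group where they are high.

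Of the 17 other MMPs, 7 were tested, 5 with lower estimates. MMP16, a membrane-type protease, was at 35.3 ± 5.30 CPM over mock and 23.2 ± 4.82 CPM over knockdown libraries (SD, n = 3), and MMP17, which is anchored by a lipid, at 7.36 ± 1.15 and 4.51 ± 1.16 CPM (SD, n = 3). Neither overlapped between groups, with log2 fold changes of -0.60 and -0.71 and adjusted p-values of 0.169 and 0.188 in edgeR, and of 0.0109 and 0.0157 without knockdown library 2. Of the 5 other inhibitors, RECK, a membrane-anchored MMP inhibitor, was at 21.6 ± 1.34 and 22.8 ± 1.70 CPM (SD, n = 3), and TFPI2 at 21.3 ± 3.36 and 17.3 ± 2.50 CPM (SD, n = 3), both with overlapping groups.

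Of the 13 other ADAMs, 11 were tested, 7 with lower estimates. ADAM19 had the lowest adjusted p of the related genes, 0.0848 in edgeR, at 12.2 ± 1.84 CPM over mock and 6.08 ± 0.267 CPM over knockdown libraries (SD, n = 3), a log2 fold change of -1.01 (SE 0.16), and the adjusted p was 0.00479 without knockdown library 2. ADAM23 was at 20.5 ± 2.27 and 14.5 ± 1.32 CPM (SD, n = 3), with an edgeR adjusted p of 0.168, and 0.0271 without knockdown library 2. ADAM10, the sheddase most like ADAM17 in its work, was at 169 ± 15.1 and 158 ± 24.7 CPM (SD, n = 3), and ADAM9 at 251 ± 9.30 and 241 ± 11.5 CPM (SD, n = 3), both with overlapping groups. The log2 fold change was -0.08 for ADAM15, positive without mock library 1 or knockdown library 2, and -0.17 for ADAM11. Of the 19 ADAMTS genes, which encode secreted proteases, 9 were tested, 6 with lower estimates. ADAMTS3, a procollagen protease, was at 19.6 ± 2.16 and 14.1 ± 3.57 CPM (SD, n = 3), with an adjusted p of 0.284 in edgeR, and 0.0126 without knockdown library 2. ADAMTS6 and ADAMTS13, the protease of von Willebrand factor, had log2 fold changes of -0.36 and -0.38. ADAMTS13 was at -0.74 without knockdown library 2 (edgeR adjusted p = 0.0297).

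Of the 7 ADAM17 partners tested, 5 had lower estimates. RHBDF2, which escorts ADAM17 to the surface, was at 43.3 ± 5.37 and 33.1 ± 10.7 CPM (SD, n = 3), with an adjusted p of 0.423 in edgeR, and 0.0212 without knockdown library 2. FRMD8, which stabilizes that complex, was at 43.7 ± 2.79 and 42.6 ± 4.57 CPM (SD, n = 3), and NRDC, an enhancer of shedding, at 248 ± 16.3 and 256 ± 5.80 CPM (SD, n = 3). PTPN3 and MAD2L1 had log2 fold changes of 0.17 and -0.11, and the sign flipped under another setting for FRMD8, NRDC and MAD2L1.

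Of the 8 genes of MMP induction and activation, 7 were tested, 4 with lower estimates. PLAU, the gene of urokinase, was at 346 ± 45.7 CPM over mock and 196 ± 21.5 CPM over knockdown libraries (SD, n = 3), with groups that did not overlap and an adjusted p of 0.0899 in edgeR, and 0.00302 without knockdown library 2. PLAT, the tissue plasminogen activator, had a log2 fold change of -0.31. FURIN, which cleaves the propeptide of MMP14, was at 122 ± 18.8 and 90.4 ± 22.2 CPM (SD, n = 3), with an adjusted p of 0.325 in edgeR, and 0.0407 without knockdown library 2. BSG, the MMP inducer also called EMMPRIN, was at 687 ± 40.7 and 627 ± 87.4 CPM (SD, n = 3).

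Of 21 genes of invadopodia and MMP14 traffic, 13 had lower estimates. ITGB1, the beta-1 integrin, was at 1411 ± 36.9 and 730 ± 265 CPM (SD, n = 3), without overlap and with an adjusted p of 0.118 in edgeR. Its log2 fold change of -0.95 became -1.29 without knockdown library 2 (edgeR adjusted p = 0.000175). CD44, a docking receptor for MMPs, was at 713 ± 44.7 and 572 ± 207 CPM (SD, n = 3), with an adjusted p of 0.524 in edgeR, and 0.00661 without knockdown library 2. CAV1, the caveolin through which MMP14 is taken up, was higher, at 251 ± 7.52 and 336 ± 61.6 CPM (SD, n = 3), with groups that did not overlap and an adjusted p of 0.227 in edgeR, and 0.0251 without knockdown library 2. Of the 15 matrix substrates, 9 were tested, 6 with lower estimates. VCAN, versican, was at 18.0 ± 2.63 and 12.0 ± 1.33 CPM (SD, n = 3), with groups that did not overlap and an adjusted p of 0.159 in edgeR, and 0.0239 without knockdown library 2. LAMB3, a laminin chain, TNC, tenascin C, and HSPG2, perlecan, had log2 fold changes of -0.30, -0.54 and 0.10, the last negative without mock library 3. TNC was at -1.04 without knockdown library 2 (edgeR adjusted p = 0.0232).

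**Figure D5:**
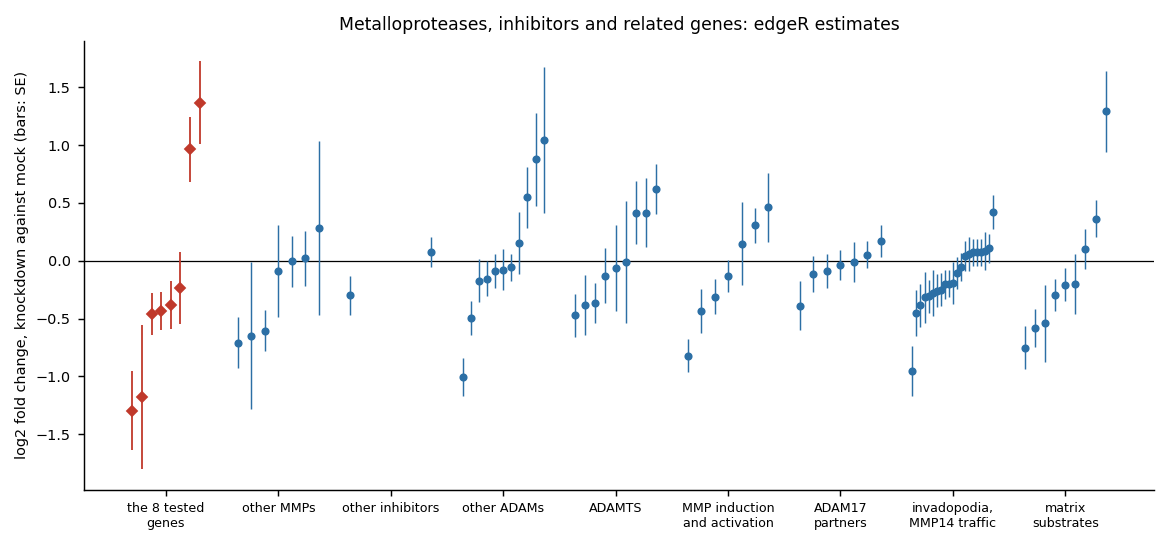
log2 fold changes of knockdown against mock with their SE from edgeR, for the 8 tested genes (diamonds) and for tested genes of 8 related lists (circles), ordered by value within a list; ADAM10 stands in 2 lists. MMP14 was at -1.30, and MMP15, tested only through its higher group, at 1.37.

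Genes with the pattern most like that of MMP14 were sought among 10619 tested genes with a mean of at least 5 CPM. Likeness was the root-mean-square difference of log2 CPM over the 6 libraries, each gene centred on its mock mean. The 5 nearest were CNIH3 (0.0932), THSD4 (0.139), WWTR1 (0.161), STEAP3 (0.176) and LIF (0.176). WWTR1, the gene of the transcriptional coactivator TAZ, had 182, 203 and 202 CPM in mock and 58.4, 129 and 54.5 CPM in knockdown libraries 1, 2 and 3. Its library 2 lay between the others and mock as for MMP14, which the choice by likeness brings with it. LIF, a cytokine gene, had 54.7, 50.1 and 54.3 CPM in mock and 14.7, 48.9 and 13.9 CPM in knockdown libraries 1, 2 and 3. For TIMP1, the most abundant TIMP, the 5 nearest were CRYL1 (0.0437), TRAPPC9 (0.0518), LRP10 (0.0614), PRX (0.0640) and ITPR3 (0.0645). ITPR3, a calcium channel gene, had 407, 279 and 295 CPM in mock and 179, 345 and 243 CPM in knockdown libraries 1, 2 and 3.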

How the data were processed

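The authors deposited raw counts per gene and FPKM values for 6 libraries of total RNA. Per the submitters' processing notes, the tools were featureCounts 2.0.3, HISAT2 2.1.0, bcl2fastq 2.20 and DESeq2, on build GRCh38.p13, and the strand setting and annotation release are not given in the sources used here. FPKM values, as deposited, were the counts over gene length and library total, and the implied length matched GENCODE 29 within 0.5 bases for 97.4% of genes with a count. Columns of other samples numbered 0.

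Counts were tested with edgeR 4.0.16 (R 4.3.3): filterByExpr, which kept 17349 genes, TMM scaling, quasi-likelihood F test of knockdown against mock, and Benjamini-Hochberg adjustment over all genes tested, with a threshold of 0.05. Each SE was taken from the fold change and its F value, and log2 CPM used a prior count of 2. DESeq2 1.42.0 and limma 3.58.1 on log2(FPKM + 1) or log2(FPKM + 0.1) were alternatives. All libraries differed beyond sampling noise, the closest with a chi-square of 14.2 for each degree of freedom. On counts simulated for this comparison, over 17005 genes, edgeR found 50% of true log2 changes of 1, 94% of true log2 changes of 2, and 14 false ones. Each simulated gene was drawn independently in each library, with no shift shared by many genes in 1 library. These rates are averages over genes and do not give the power for any gene named here.

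All 10 genes were described. Related genes came from lists of known function, and those named were up to 3 per list with the highest mean FPKM and up to 3 with the largest change at 5 CPM or more. A gene that the rule selects is not reported here. Genes and lists were chosen with earlier results of these data known. Promoter sequences are those of RefSeq on GRCh38.p14, which held 6 of the 10 genes. Python 3.11.15 and matplotlib 3.10.9 drew the plots.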

Additional observations from a re-analysis of the deposited data

How the results depend on the processing

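All 8 tested genes kept the sign of their log2 fold change under the 14 alternatives. The count of the 10 genes past the threshold, 0, was 4 without the filter on low counts (MMP1, MMP14, MMP24 and TIMP2). In that fit 9 of the 10 genes were tested, and 1077 of all 34493 genes tested passed. SEs there were 0.157, 0.157, 0.283 and 0.155 for these 4, against 0.623, 0.342, 0.283 and 0.181 in the main fit. With the replicate block 1 of the 10 genes passed (MMP14), where 162 of 17349 genes passed. The count for the 10 genes was 6 without knockdown library 2, where 2453 of 17750 genes passed. It was 0 with any other library left out. The cause of the difference without the filter was not tested. The count of all genes past the threshold, 4, was 5 with DESeq2 size factors, 2 with library totals only, 1077 without the filter, 564 in DESeq2 and 162 with the replicate block. It was 2 and 1 in limma on log2(FPKM + 1) and log2(FPKM + 0.1), and 0 in limma on log2(FPKM + 1) without a filter. Without knockdown library 2 the count of all genes was 2453, and with any other library left out it was 1. Replicate numbers are shared by both groups, but deviations from the group means correlated at -0.19, 0.11 and 0.07 for numbers 1, 2 and 3, so the numbers were not taken as pairs. With the replicate block, MMP14 had a log2 fold change of -1.47 and an adjusted p of 0.0178. Not every library correlated best with its own number.

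Signs changed for related genes near 0. With each library left out, ADAM15 ranged from -0.215 to 0.0878, positive without mock library 1 or knockdown library 2. MAD2L1 ranged from -0.288 to 0.0338, positive without knockdown library 2. Without mock library 3 the sign changed for HSPG2 (range -0.0226 to 0.302), NRDC (-0.0018 to 0.0777) and FRMD8 (-0.131 to 0.0059). With library totals only, FRMD8 was at 0.00957. In limma it was at 0.0064, 0.0067 and 0.0064 on log2(FPKM + 1), log2(FPKM + 0.1) and log2(FPKM + 1) without a filter. The median over all genes was 0.0226, 0.0055 and 0.0709 with TMM, DESeq2 size factors and library totals. Depth limits MMP3, MMP15 and TIMP3.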

Other observations

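MMP19, an MMP of broad substrate range, was noted after its values were seen. It had 1, 3 and 0 counts in mock and 17, 5 and 21 counts in knockdown libraries 1, 2 and 3, so all 3 knockdown libraries were above mock, and it did not pass the filter on low counts over 6 libraries. Without knockdown library 2 it was tested, through its higher group only, with a log2 fold change of 3.61 (edgeR adjusted p = 0.0127). Over 6 libraries without that filter it passed the threshold, as did 1077 of 34493 genes. That fit rests on the same counts and adds no support. Its direction was opposite to that of MMP1 and MMP14.

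COL1A1, the gene of a type I collagen chain that MMP1 and MMP14 cleave, was likewise noted after its values were seen. It was low, with 16, 21 and 15 counts in mock and 38, 61 and 34 counts in knockdown libraries 1, 2 and 3. It was at 0.608 ± 0.118 CPM in mock and at 1.50 ± 0.571 CPM in knockdown libraries (SD, n = 3), with groups that did not overlap, and a log2 fold change of 1.29 (SE 0.35, edgeR adjusted p = 0.153). Without knockdown library 2 the log2 fold change was 0.94 with an adjusted p of 0.0809 in edgeR. COL1A2, also a type I collagen gene, had at most 2 counts in any library, and 6 of the 9 tested matrix substrates had lower estimates.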
